A study of Mus musculus with 12 samples.

Results

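The genes described here are Txnip, its nearest relative Arrdc4, and the genes of the glucose-sensing transcription factors that act on them, Mlxipl, Mlxip, and Mlx. They are 5 of the 34245 genes in the deposited expression table and were found by their symbols. All 5 had reads in each library and entered each comparison. The genes were chosen by their measured levels in these libraries and by their values after p38-MAPK inhibition at 4, 7, and 10 h, so those values are given as a description, without a test.

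The study measured mRNA in mouse embryos, for which the records name no transgene or mutation. Embryos came from superovulated F1 hybrid (C57Bl6 x CBA/W) females mated with F1 males, were recovered at the 2-cell stage, and grew to E3.5 in KSOM medium with added amino acids. From E3.5, pools of 30 blastocysts were kept in the solvent DMSO (control) or in medium with SB220025 at 20 µM, which inhibits p38-MAPK (p38-MAPKi), for 4, 7, or 10 h. Each of the 6 groups had 2 replicates, described in the study as biological duplicates, which gave 12 libraries. A pool holds whole blastocysts of trophectoderm and inner cell mass, so fewer cells of a type and less RNA per cell cannot be told apart.

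TXNIP is an alpha-arrestin, a scaffold protein that binds thioredoxin and brings glucose transporters in from the cell surface, so that it restrains glucose uptake. ARRDC4 belongs to the same family and acts on glucose transporters in a similar way. Txnip and Arrdc4 are among the known targets of MondoA (gene Mlxip) and ChREBP (gene Mlxipl), paired transcription factors that respond to phosphorylated glucose inside the cell. Both need MLX as the partner with which they bind carbohydrate response elements, which are pairs of E-box-like letters 5 bases apart. The blastocyst stage is known for a sharp rise in glucose uptake and glycolysis.

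In the GRCm38 genome, Txnip (ENSMUSG00000038393.14) lies on the forward strand at chr3:96557957-96561883, Arrdc4 (ENSMUSG00000042659.15) on the reverse strand at chr7:68736995-68749241, Mlxipl (ENSMUSG00000005373.13) on the forward strand at chr5:135089890-135138382, Mlxip (ENSMUSG00000038342.15) on the forward strand at chr5:123394798-123457932, and Mlx (ENSMUSG00000017801.15) on the forward strand at chr11:101087277-101092207. The 250 bases before the start site are shown for the members whose p38-MAPKi libraries lay above the control libraries at each time point, because these are the bases in which response elements are looked for. They are RefSeq sequences of GRCm38.p6, written 5′ to 3′ on the gene's own strand, and the capitals mark each CACGNG on either strand. Their positions are chr3:96557707-96557956 for Txnip, chr7:68749239-68749488 on the reverse strand for Arrdc4, and chr5:135089640-135089889 for the first start site of Mlxipl.
Txnip: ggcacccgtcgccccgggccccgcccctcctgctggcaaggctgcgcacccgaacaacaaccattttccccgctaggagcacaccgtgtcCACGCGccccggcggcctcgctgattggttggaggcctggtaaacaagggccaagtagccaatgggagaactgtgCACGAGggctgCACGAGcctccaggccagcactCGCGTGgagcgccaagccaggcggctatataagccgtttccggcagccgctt
Arrdc4: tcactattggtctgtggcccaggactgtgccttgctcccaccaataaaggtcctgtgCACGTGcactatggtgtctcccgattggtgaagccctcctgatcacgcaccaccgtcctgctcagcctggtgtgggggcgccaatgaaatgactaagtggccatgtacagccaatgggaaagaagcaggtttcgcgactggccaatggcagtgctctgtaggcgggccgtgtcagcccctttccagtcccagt
Mlxipl: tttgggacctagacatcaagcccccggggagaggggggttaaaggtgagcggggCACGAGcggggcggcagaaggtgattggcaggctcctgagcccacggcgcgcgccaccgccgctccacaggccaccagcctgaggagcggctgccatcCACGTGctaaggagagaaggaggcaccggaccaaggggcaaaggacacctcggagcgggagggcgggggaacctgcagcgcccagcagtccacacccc

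The Txnip window held 4 CACGNG matches, and a pair of them with 5 bases between lay from -85 to -69, counted from the start site. The Arrdc4 window held a single match, the palindrome CACGTG, from -193 to -188. The first start site of Mlxipl had CACGTG from -98 to -93, and the Mlx window had it from -40 to -35. No CACGNG was found in the window of Mlxip or in that of the second start site of Mlxipl (chr5:135106641-135106890), and the table gives a value per gene, so that the start sites of Mlxipl cannot be told apart. Of the 32851 RefSeq windows of this length, 6.02% held CACGTG, 23.5% held CACGNG, and 0.0457% held a pair of CACGNG with 5 bases between. The pair was searched for with the Txnip sequence in view, and a match is a description of letters.

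Library depth lay between 11242313 and 24457312 reads, with the fewest reads and the fewest genes with a read (14001, against 16343 to 17645) in replicate 1 of p38-MAPKi at 7 h. Replicate 1 of the control at 4 h stood apart by the transcript Gm42418, at 25354 RPKM against at most 7353 RPKM in the other libraries, and by the share of reads on genes, 84.2% against 86.3% to 91.4%. Marker genes of trophectoderm (Cdx2, Krt8), epiblast (Nanog, Pou5f1), and primitive endoderm (Gata6, Pdgfra) were present in each library. The paper describes uncommitted cells of the early inner cell mass that carry both NANOG and GATA6, so Nanog and Gata6 do not separate epiblast from primitive endoderm. Other primitive endoderm markers were low, with at most 3.86 RPKM for Gata4, 4.38 RPKM for Sox17, and 0.436 RPKM for Sox7. No RNA was spiked in, so RPKM (reads scaled to the length of the gene model and to the depth of the library) is a share of the library.

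Txnip, the arrestin that holds back glucose uptake, had its highest levels at 10 h in both treatments, and was higher after p38-MAPKi than in the control at each time point. At 4 h, the control libraries had 5.77 and 12.5 RPKM and the p38-MAPKi libraries 15.3 and 16.3 RPKM. At 7 h, the control libraries had 12.4 and 11.0 RPKM and the p38-MAPKi libraries 24.4 and 21.6 RPKM. At 10 h, the values were 20.7 and 16.1 RPKM in the control and 33.7 and 33.5 RPKM after p38-MAPKi. Each p38-MAPKi library was thus above both control libraries of its time point, and the lowest value of the series was that of replicate 1 of the control at 4 h, the library that stood apart. These levels rest on 308 to 2562 reads per library. On the log2 scale, p38-MAPKi minus control was 0.89 (limma SE 0.220) at 4 h, 0.97 (SE 0.185) at 7 h, and 0.88 (SE 0.120) at 10 h, or 1.86-, 1.96-, and 1.84-fold. In the fit at 4 h, the SE of Txnip and of every other gene is the one expected at the gene's level. It does not measure the spread of the gene's own replicates. Without replicate 1 of the control, the difference at 4 h was 0.33, and without replicate 2 it was 1.45, so the size at 4 h rested on which control library was used. By group mean, the order from low to high was control at 4 h and 7 h, p38-MAPKi at 4 h, control at 10 h, and p38-MAPKi at 7 h and 10 h. The neighbours whose libraries overlapped were the control at 4 h and at 7 h, and p38-MAPKi at 4 h and the control at 10 h.

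Arrdc4, the second arrestin of the pathway, followed the same order of treatment within each time point at a lower level. The control libraries had 0.883 and 2.79 RPKM at 4 h, 3.25 and 2.93 RPKM at 7 h, and 6.15 and 4.18 RPKM at 10 h. The p38-MAPKi libraries had 4.12 and 3.53 RPKM at 4 h, 4.73 and 5.15 RPKM at 7 h, and 8.51 and 8.60 RPKM at 10 h. No p38-MAPKi library overlapped with a control library of its time point, and the lowest value was again that of replicate 1 of the control at 4 h. The log2 difference was 1.28 (SE 0.331), 0.68 (SE 0.250), and 0.76 (SE 0.181) at the 3 time points. Without replicate 1 of the control it was 0.45 at 4 h, and without replicate 2 of the control it was 2.11 at 4 h and 0.48 at 10 h. Among neighbours in the order of group means, only p38-MAPKi at 7 h and the control at 10 h overlapped.

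**Figure D1:**
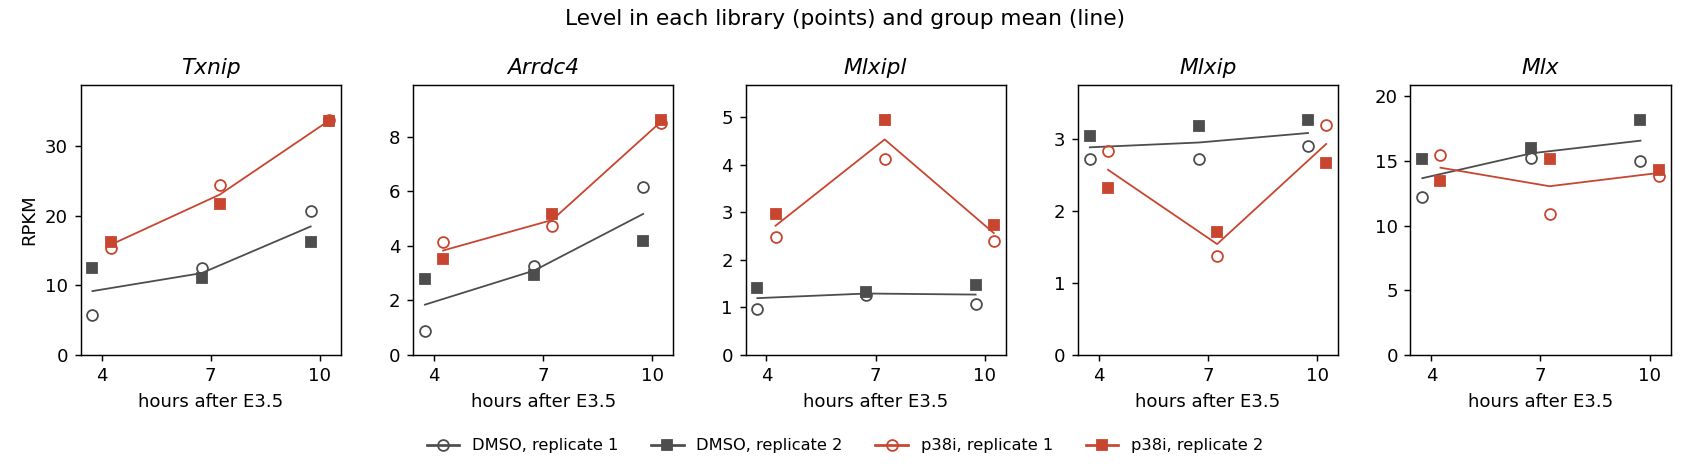
Levels of the 5 genes in RPKM (vertical axis, from 0) against hours after E3.5. Open circles are replicate 1, filled squares replicate 2, grey is DMSO, red is p38i, and lines join the means of 2 libraries. The red points of Txnip, Arrdc4, and Mlxipl lie above the grey points of their time point, and those of Mlxip lie below them at 7 h alone.

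Mlxipl, which encodes the glucose-responsive activator ChREBP, was among the low genes of the control blastocyst, at the 4.10 percentile of 10708 genes whose mean in the controls was at least 1 RPKM. In the control it had 0.972 and 1.41 RPKM at 4 h, 1.27 and 1.31 RPKM at 7 h, and 1.06 and 1.47 RPKM at 10 h. After p38-MAPKi it had 2.48 and 2.96 RPKM, 4.13 and 4.94 RPKM, and 2.39 and 2.73 RPKM. All 6 p38-MAPKi libraries were above all 6 control libraries, and the highest values were those at 7 h. The counts behind these levels were low, 92 to 190 reads in the control and 257 to 477 reads after p38-MAPKi. The log2 difference was 1.21 (SE 0.384) at 4 h, 1.81 (SE 0.319) at 7 h, and 1.03 (SE 0.236) at 10 h, or 2.31-, 3.5-, and 2.04-fold. With 1 RPKM added to each value, which is close to the level of the gene, it was 0.77 at 4 h and 0.66 at 10 h. The control groups overlapped with each other, and so did p38-MAPKi at 4 h and 10 h.

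Mlxip, which encodes MondoA, the relative of ChREBP that is known to act on Txnip in many cell types, did not follow Mlxipl. The control libraries had 2.73 and 3.04 RPKM at 4 h, 2.72 and 3.18 RPKM at 7 h, and 2.90 and 3.26 RPKM at 10 h. The p38-MAPKi libraries had 2.83 and 2.31 RPKM at 4 h, 1.37 and 1.71 RPKM at 7 h, and 3.19 and 2.67 RPKM at 10 h. Treated and control libraries overlapped at 4 h and 10 h, and at 7 h both p38-MAPKi libraries were below both control libraries and below every other library. The log2 difference at 7 h was -0.94 (SE 0.351), against -0.17 (SE 0.316) at 4 h and -0.08 (SE 0.162) at 10 h. With the trend of each library on gene length removed, the difference at 7 h was -0.53. With each library centred on its median, it was -0.75. Mlxip has the longest gene model of the 5, 8326 bases against 1999 to 5538, and its 7 h levels after p38-MAPKi rest on 128 and 248 reads.

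Mlx, the common partner of both factors, was the most abundant of the 3 factor genes and the one that varied least, between 10.9 and 18.2 RPKM over the 12 libraries. The control libraries had 12.2 and 15.1 RPKM at 4 h, 15.2 and 16.0 RPKM at 7 h, and 14.98 and 18.2 RPKM at 10 h. The p38-MAPKi libraries had 15.5 and 13.5 RPKM, 10.9 and 15.2 RPKM, and 13.9 and 14.3 RPKM. Treated and control libraries overlapped at 4 h, and both p38-MAPKi libraries were the lower ones at 7 h and 10 h, although at 7 h the nearest libraries of both groups were at 15.2 RPKM. The log2 difference was 0.09 (SE 0.215), -0.28 (SE 0.212), and -0.23 (SE 0.107), and without replicate 1 of p38-MAPKi it was -0.04 at 7 h. The last 385 bases of Mlx overlap with Psmc3ip on the other strand, which had 7.14 to 15.7 RPKM. Whether reads were counted by strand was not given in the sources used here, so the share of Psmc3ip in these values is not known. Txnip lies within the antisense gene Gm15441, which had at most 0.163 RPKM.

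At 4 h, 3 of the 5 genes had both p38-MAPKi libraries above both control libraries, a pattern held by 26.8% of the 10781 genes tested, and 0 of 5 had both below, against 13.7%. At 7 h, 3 of 5 were above (23.0% of 10940 genes) and 2 of 5 below (38.7%). At 10 h, 3 of 5 were above (22.6% of 10959 genes) and Mlx was below (29.6%). The genes above were Txnip, Arrdc4, and Mlxipl each time. The genes were chosen by this contrast, so nothing is read from these shares. The median log2 difference of all genes tested was 0.07, -0.14, and -0.02, and at 7 h the values stand against that shift: with median centring, Txnip had 1.17 and Mlxipl 2.00. No test of a change of these differences between time points was made, as it would rest on the values by which the genes were chosen.

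**Figure D2:**
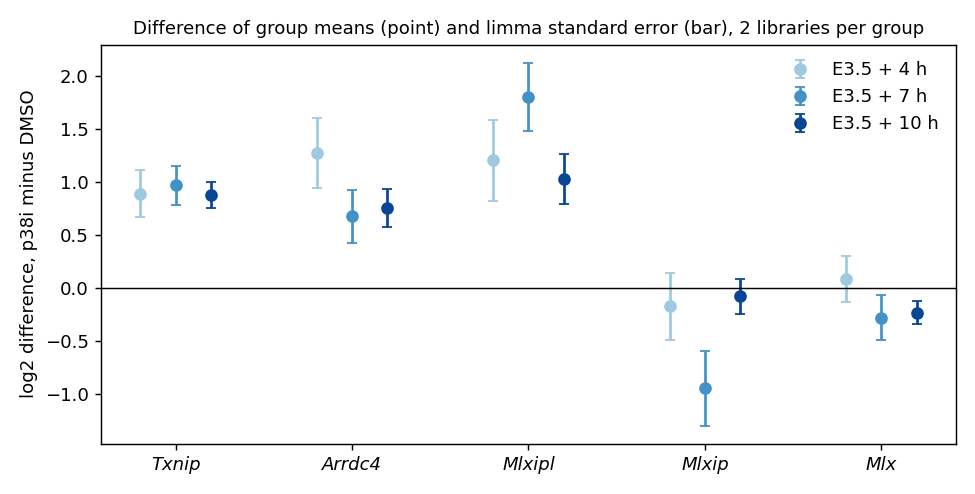
Difference of the group means on the log2 RPKM scale (p38i minus DMSO, vertical axis) for each gene at the 3 time points. Points are the differences, bars are the limma standard error, with 2 libraries per group, and no test is shown. At 4 h the bars give the error expected at the level of each gene, not the spread of its own replicates. The 3 points of Txnip lie between 0.88 and 0.97, those of Mlxipl peak at 7 h with 1.81, and the 7 h point of Mlxip is at -0.94.

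Because Mlxipl and Mlxip encode alternative partners of MLX, their ratio was also computed in each library, on values per length. In the 6 control libraries, the level of Mlxipl was 0.356 to 0.465 times that of Mlxip, or 26.3% to 31.8% of their sum. After p38-MAPKi the ratio was 0.876 and 1.28 at 4 h, 3.02 and 2.89 at 7 h, and 0.750 and 1.02 at 10 h. Each treated library was above each control library, and at 7 h Mlxipl was the more abundant of the pair, with 75.1% and 74.3% of the sum. A scaling of the whole library cannot move a ratio within it, and a trend on length can. The sum of both genes was 3.70 to 4.73 RPKM in the control and 5.27 to 6.65 RPKM after p38-MAPKi. This was below the level of Mlx in each library, with a sum of 0.261 to 0.504 times Mlx.

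**Figure D3:**
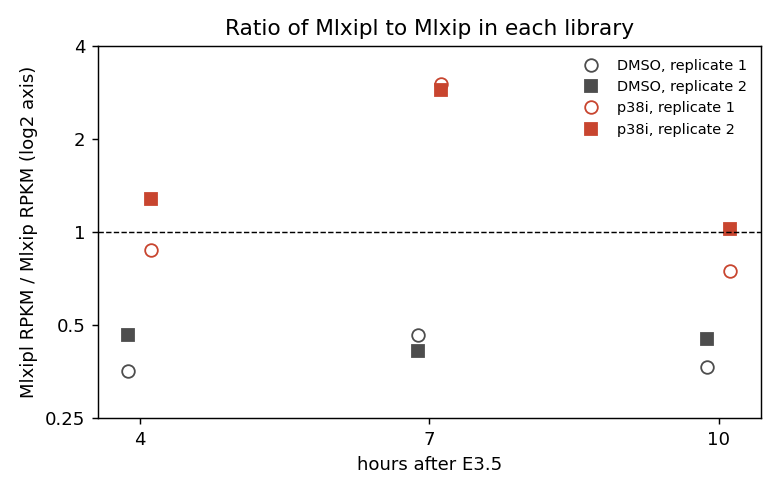
Ratio of Mlxipl to Mlxip in RPKM (log2 axis) in each of the 12 libraries against hours after E3.5. The dashed line marks equal levels. The control libraries lie between 0.356 and 0.465 at each time point, and the p38i libraries at 7 h lie at 3.02 and 2.89.

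The levels in the 12 libraries were among the values that chose the genes, so their differences with time are also given without a test. In the control, Txnip was 2.15-fold higher at 10 h than at 4 h (log2 difference 1.10, SE 0.279) and Arrdc4 3.23-fold higher (1.69, SE 0.418), with both 10 h libraries above both 4 h libraries. The median over all genes was 0.14. Without replicate 1 of the control at 4 h, the differences were 0.54 for Txnip and 0.86 for Arrdc4. Without replicate 2 at 4 h they were 1.66 and 2.52, without replicate 1 at 10 h 0.92 and 1.41, and without replicate 2 at 10 h 1.28 and 1.97. After p38-MAPKi, Txnip was 2.13-fold higher at 10 h than at 4 h (1.09, SE 0.126) and Arrdc4 2.24-fold higher (1.17, SE 0.170), again with no overlap. Mlxipl, Mlxip, and Mlx had log2 differences with time between -0.08 and 0.28. Over all genes, limma called 0.471% of 10825 with time in the control (0.434% as higher at 10 h). After p38-MAPKi it called 0 of 10949 (0% in either direction and 0% as higher at 10 h), while 2431 had an unadjusted p under 0.05 and voom on the recovered reads called 1.

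Txnip and Arrdc4 varied together, and the ratio of Txnip to Arrdc4 was 3.37 to 6.53 in the 12 libraries. Pearson's r of their log2 RPKM was 0.966 over 12 libraries, 0.954 without replicate 1 of the control at 4 h, 0.989 over the 6 control libraries, and 0.946 over the 6 p38-MAPKi libraries. These points share the treatment and time groups and are given as a description. The members were also chosen by their levels in these libraries, so nothing is read from these correlations or from the ranks that follow. Among 10719 genes that reached 1 RPKM in 6 or more libraries, Arrdc4 ranked second in likeness to Txnip, after Sumo3 (r = 0.972) and before Pigh (0.949), Sltm (0.933), and Tmbim1 (0.922). Sumo3 encodes a small protein that is attached to other proteins, and its own log2 difference between p38-MAPKi and control was 0.28, 0.22, and 0.31. Mlxipl had r = 0.637 with Txnip and ranked 724, Mlxip had -0.25, and Mlx -0.03. The genes most like Mlxipl were Ddit3 (r = 0.968), which encodes the stress-response factor CHOP, then Rassf1 (0.952) and Ccdc25 (0.944). Over the 6 p38-MAPKi libraries Mlxipl and Mlxip had r = -0.911, and over the 6 control libraries 0.727.

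**Figure D4:**
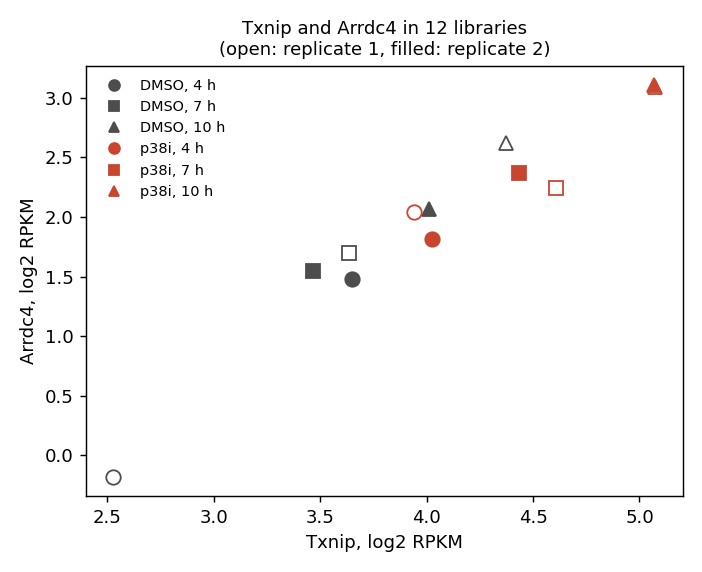
Arrdc4 against Txnip, both as log2 RPKM, in the 12 libraries. Colour is the treatment, shape the time point, open symbols are replicate 1 and filled symbols replicate 2. Both p38i libraries at 10 h lie together at the upper right, and replicate 1 of the control at 4 h lies alone at the lower left.

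The other members of the alpha-arrestin family were below Txnip in most libraries, with Arrdc1 above it in replicate 1 of the control at 4 h and in both control libraries at 7 h. Summed over 6 alpha-arrestin genes, the level was 20.4 to 61.5 RPKM, and Txnip made up 28.3% to 56.1% of it. Of Arrdc1, Arrdc2, and Arrdc3, which passed the filter (Arrdc5 did not), Arrdc2 was the one called at 4 h, where limma called 0.909% of all genes. All 3 had both p38-MAPKi libraries above both control libraries at 4 h. Arrdc2 had 1.21 and 3.13 RPKM in the control and 5.26 and 4.54 RPKM after p38-MAPKi (log2 difference 1.33, SE 0.300, limma adjusted p = 0.00333). Without replicate 1 of the control at 4 h, the difference was 0.64 and did not pass, and without replicate 2 it was 2.01. At 7 h its difference was 0.82 (adjusted p = 0.0822) and at 10 h 0.10 (adjusted p = 0.815). Arrdc1 had 0.38, -0.22, and -0.43 at the 3 time points and did not pass. Arrdc3 did not pass either, but both its p38-MAPKi libraries were above both control libraries at each time point. At 4 h it had 2.45 and 2.73 RPKM in the control and 3.17 and 3.05 RPKM after p38-MAPKi. At 7 h it had 2.70 and 3.33 RPKM against 3.46 and 3.62 RPKM, and at 10 h 3.01 and 2.43 RPKM against 3.81 and 4.18 RPKM. Over all genes tested, 26.8%, 23.0%, and 22.6% had that pattern at 4, 7, and 10 h.

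Known targets of ChREBP and MondoA other than the arrestins, mostly enzymes of fructose use and fat synthesis, were 22 genes. Of 16 tested at 4 h, 2 rose, where 0.909% of all genes were called. Of 15 tested at 7 h, 1 rose, where 2.13% of all genes were called. At 10 h, 0 of 15 passed, where 0.803% of all genes were called, and no gene of the list fell at any time point. The median log2 difference of the list was 0.29, 0.07, and 0.07, beside 0.07, -0.14, and -0.02 over all genes. Thrsp, which encodes a regulator of fat synthesis, had 2.65 and 2.78 RPKM in the control at 4 h and 5.11 and 5.66 RPKM after p38-MAPKi (log2 difference 0.99, SE 0.278, limma adjusted p = 0.0433). At 7 h it had 3.09 and 3.42 RPKM against 10.4 and 7.15 RPKM (1.40, SE 0.255, limma adjusted p = 0.0461). At 10 h its libraries overlapped, at 2.04 and 2.26 RPKM in the control and 2.22 and 2.22 RPKM after p38-MAPKi. The change of its difference between 7 h and 10 h was -1.35 and did not pass (limma adjusted p = 0.0710). That fit held the 8 libraries of both time points and called 1 of 11400 genes. Other list genes had the same adjusted p, among them Slc2a3 (0.80), Mtor (0.98), and Sfn (-0.64). Fasn, the fatty acid synthase gene, rose at 4 h (0.77, SE 0.201, limma adjusted p = 0.0201), and had 0.41 at 7 h and 0.22 at 10 h, which did not pass. At 10 h, Scd2 and Scd1, desaturase genes with the highest levels in the list, had 0.18 and 0.26 and did not pass. Without replicate 1 of the control at 4 h, Thrsp had 0.95 and Fasn 0.61 at 4 h, and neither passed. At 4 h, both also lost the call without replicate 2 of the control (1.02 and 0.93), Thrsp without replicate 2 of p38-MAPKi (0.91), and Fasn without replicate 1 of p38-MAPKi (0.41). At 7 h, Thrsp lost it without replicate 1 (1.33) or 2 (1.48) of the control.

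Genes listed under glucose entry and phosphorylation had negative median differences after p38-MAPKi, and so did all genes tested at 7 h and 10 h. Of 14 genes, 7 were tested at 4 h and 8 at the later times, and 1 fell, at 10 h. This was Slc2a1, which encodes the transporter GLUT1, with 42.1 and 42.8 RPKM in the control and 27.2 and 29.1 RPKM after p38-MAPKi (log2 difference -0.59, SE 0.069, limma adjusted p = 0.0398), where 0.803% of all genes were called. At 4 h and 7 h its differences were -0.30 and -0.74, with adjusted p = 0.685 and 0.0657. Slc2a3, the transporter gene with the highest level in the list, had -0.27, -0.77, and 0.04 and did not pass, and neither did Gpi1 (0.16, -0.19, and -0.13), the glucose phosphate isomerase gene. The median of the list was -0.16, -0.53, and -0.15, beside 0.07, -0.14, and -0.02 over all genes. The call of Slc2a1 was lost without replicate 2 of the control (-0.58) or replicate 1 of p38-MAPKi (-0.55).

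In the thioredoxin system, the proteins that TXNIP binds and the enzymes that work with them, 12 genes were tested at 4 h and 7 h and 11 at 10 h. Of all genes tested, limma called 0.909% at 4 h, 2.13% at 7 h, and 0.803% at 10 h. Srxn1, which encodes the sulfiredoxin that repairs peroxiredoxins, fell at 10 h, from 45.9 and 45.5 RPKM to 21.3 and 26.8 RPKM (log2 difference -0.94, SE 0.112, limma adjusted p = 0.0398), and no other gene of this list passed at any time point. Txn1, the thioredoxin that TXNIP binds, had 0.22, 0.81, and -0.21, with adjusted p of 0.781, 0.0753, and 0.183. Prdx1, a peroxiredoxin gene, had 0.21, 0.40, and -0.12. The list's median was 0.19, 0.27, and -0.13, beside 0.07, -0.14, and -0.02 over all genes.

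In the Myc, Max, and Mxd network, whose proteins share E-boxes with the MLX factors, 9 of 10 genes were tested and 1 fell, at 4 h. Limma called 0.909% of all genes at 4 h, 2.13% at 7 h, and 0.803% at 10 h. Myc, a growth factor-responsive activator, had 5.23 and 7.72 RPKM in the control at 4 h and 2.45 and 2.83 RPKM after p38-MAPKi (log2 difference -1.27, SE 0.272, limma adjusted p = 0.00110). Its difference was -1.32 at 7 h and -0.72 at 10 h, with adjusted p = 0.0503 and 0.186. Without replicate 1 of the control at 4 h it was -1.55 at 4 h, with adjusted p = 0.0613, and without replicate 2 it was -0.99, with adjusted p = 0.546. Max, the partner of Myc, had 0.02, -0.47, and -0.25 and did not pass, and Mycn, a relative of Myc, had -0.40, -0.70, and -0.02 and did not pass. The network's median was 0.02, -0.70, and -0.05, beside 0.07, -0.14, and -0.02 over all genes.

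Of 19 partners and upstream kinases of MondoA, ChREBP, and TXNIP, 0 passed at each time point by limma, with medians of 0.00, -0.27, and -0.06. Over all genes, limma called 0.909%, 2.13%, and 0.803% at these time points, and the medians were 0.07, -0.14, and -0.02. The partners and kinases include the 14-3-3 proteins that hold the factors outside the nucleus and AMPK, which marks TXNIP for removal. Ywhae, the 14-3-3 gene with the highest level, had 0.07, 0.18, and -0.11, and Sfn 0.18, 0.32, and -0.32. No gene of the 6 lists passed with time in the control or after p38-MAPKi, where limma called 0.471% and 0% of all genes.

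**Figure D5:**
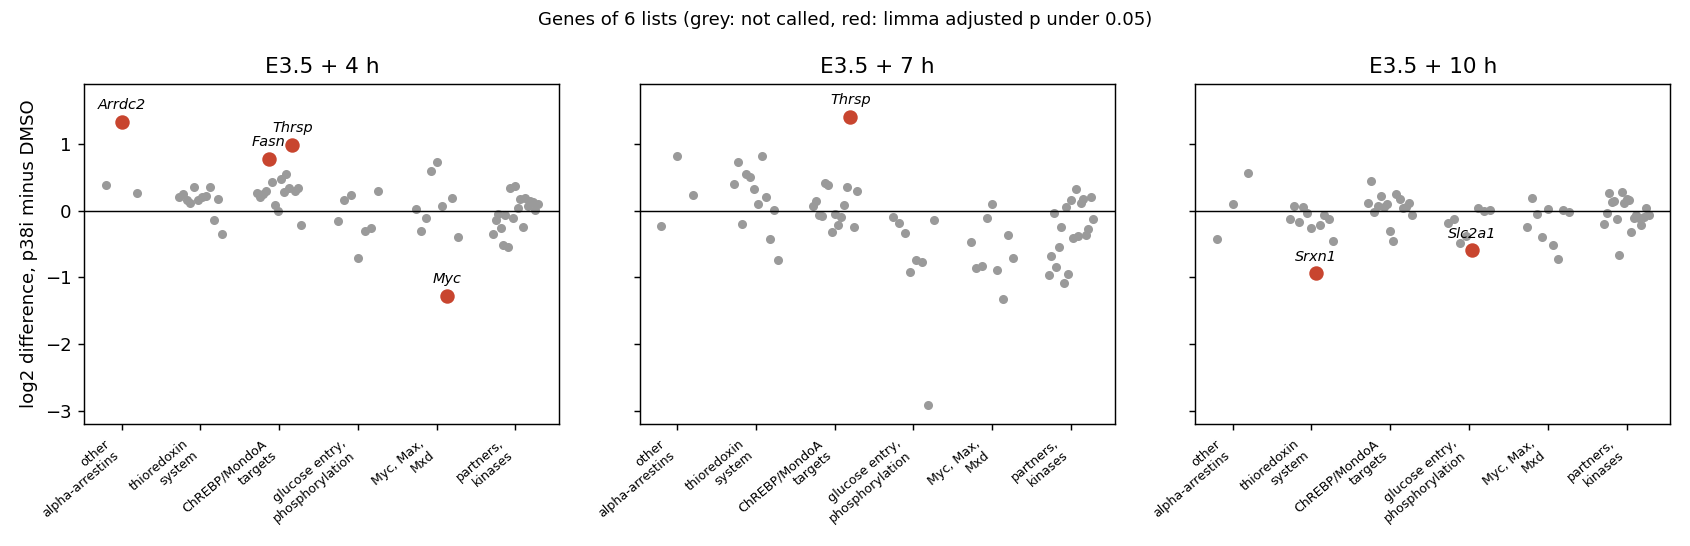
Log2 difference (p38i minus DMSO, vertical axis) of each tested gene of the 6 lists at the 3 time points. Grey points did not pass and red points had a limma adjusted p under 0.05. The red points are Arrdc2, Fasn, Thrsp, and Myc at 4 h, Thrsp at 7 h, and Srxn1 and Slc2a1 at 10 h.

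The calls and standard errors at 4 h came from a fit in which limma gave each gene the variance expected at its level. The gene's own spread had no weight. In the same libraries, Cd68, a macrophage marker that other cells also express, rose after p38-MAPKi at 4 h (log2 difference 1.06, limma adjusted p = 0.0188). Limma called 0.909% of all genes there. With median centring or quantile normalization no gene was called at 4 h, so the call of Cd68 was lost. Cd68 made up most of the summed level of 6 blood cell markers, 3.10 and 3.45 RPKM in the control and 5.65 and 7.55 RPKM after p38-MAPKi at 4 h. Ptprc and the haemoglobin genes Hbb-bs, Hbb-bt, and Hba-a2 had no read in any library. The haemoglobin gene Hba-a1 had reads in 9 of the 12 libraries, with at most 1.01 RPKM. At 7 h the blood cell sums overlapped, and at 10 h they were lower after p38-MAPKi, at 4.10 and 4.25 RPKM against 6.56 and 6.72 RPKM. The summed level of 3 oviduct markers was higher after p38-MAPKi at 4 h, at 0.742 and 0.927 RPKM against 0.515 and 0.515 RPKM, and at 10 h, at 0.821 and 0.612 RPKM against 0.536 and 0.547 RPKM, and overlapped at 7 h, with no read of Muc16 in any library. The summed level of 5 cumulus and granulosa cell markers was higher after p38-MAPKi at each time point but at most 0.944 RPKM, with no read of Has2, Ptx3, and Tnfaip6 in any library. The summed level of 5 primitive endoderm markers was lower after p38-MAPKi at 7 h, at 91.8 and 94.2 RPKM against 116 and 142 RPKM. It was higher at 10 h, at 130 and 128 RPKM against 124 and 120 RPKM, and overlapped at 4 h. Gata6, with 80.9 to 129 RPKM over the libraries, made up most of this sum. The summed level of 5 epiblast markers was lower at 10 h, at 518 and 542 RPKM against 571 and 573 RPKM. That of 6 trophectoderm markers was higher at 4 h, at 1911 and 1953 RPKM against 1734 and 1888 RPKM. Both sums overlapped at the other time points. Pou5f1, with 350 to 503 RPKM over the libraries, made up most of the epiblast sum, and Krt18 and Krt8 most of the trophectoderm sum. The sums therefore say little about the other markers of these lists. The part of these cell types in the values of Txnip and its regulators was not tested.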

How the data were processed

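Messenger RNA of 12 libraries, each from 30 pooled blastocysts, was selected by poly(A) and sequenced. The authors trimmed reads with Trim Galore 0.4.1, mapped them to GRCm38 with HISAT2 2.0.5, quantified genes with SeqMonk, and deposited log2 RPKM for each library, with a gene without reads written as 0.9 of a read. The handling of strand and of reads with several positions is not given in the sources used here. From this lowest value and GENCODE gene models, depth and whole reads (tolerance 0.02) were recovered for all genes but 1.

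Values were used as deposited. Groups were compared with limma 3.58.1 (trend) in R 4.3.3, in the 4 libraries of each comparison, over genes that reached 1 RPKM in 2 or more of them, with Benjamini-Hochberg adjusted p under 0.05. The change of a list gene's difference between time points was fitted in the 8 libraries concerned, with the same filter. The fit of each comparison was tested on simulated data. A gene was named if it was a member, a called gene of a pathway list (in a comparison of p38-MAPKi with control where none was called, its 2 highest genes), a marker of a cell type, or among the 5 most like Txnip or the 3 most like Mlxipl. Genes of the closing observations were named after their values were seen. With 1 library left out, the lone library of its group was assumed to vary like the others. The members and lists were chosen with earlier results of these data known. Promoters were read from RefSeq. Alternatives were other scalings, filters, pseudocounts and fits, a replicate block, voom on the recovered reads, and leaving out each library.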

Additional observations from a re-analysis of the deposited data

How the results depend on the processing

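In p38-MAPKi against control, Txnip kept its direction under all 15 alternatives at each time point. For most of these the direction was fixed in advance. Both p38-MAPKi libraries were above both control libraries, so leaving out a library could not change it. Another filter, a fit without the trend, a single fit, or a replicate block left the difference as it was. The Txnip difference lay between 0.33 and 1.45 at 4 h, between 0.88 and 1.17 at 7 h (1.17 with median centring), and between 0.70 and 1.06 at 10 h. The number of genes called depended strongly on the processing, and the cause was not tested. At 4 h, the 98 genes became 11 without the trend, 0 with median centring, quantile normalization, no filter, a single fit over 12 libraries, or the length trend removed (1070, 1147, 7469, 1262, and 1135 at an unadjusted p under 0.05), 36 with at least 10 RPKM, and 34 with voom. At 7 h, the 233 genes became 0 without the trend, with median centring, or with the length trend removed (2629, 3053, and 2455 unadjusted), 12 with quantile normalization, 1236 with no filter, 947 with at least 10 RPKM, 509 with a pseudocount of 1 RPKM, 2512 in a single fit, and 1726 with voom. At 10 h, the 88 genes became 9 without the trend, 0 with no filter or a single fit (3293 and 631 unadjusted), 166 with at least 10 RPKM, and 523 with voom. Leaving out each library gave 6 to 412 genes at 4 h, 0 to 2996 at 7 h, and 42 to 107 at 10 h.

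For 10 h against 4 h in the control, the 51 genes became 26 without the trend, 276 with at least 10 RPKM, 0 in a single fit (821 unadjusted), and 479 with voom. The Txnip difference was 1.10 with at least 10 RPKM and 1.08 with voom. Leaving out each library gave 53 to 1183 genes and a Txnip difference of 0.54 to 1.66. After p38-MAPKi, the 0 genes became 2 with quantile normalization, 3 with a pseudocount of 1 RPKM, 147 in a single fit, and 1 with the length trend removed or voom. Leaving out each library gave 55 to 4749 genes and a Txnip difference of 1.05 to 1.13.

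Of the called list genes, Slc2a1 passed in 10 and Srxn1 in 12 of 15 alternatives, Thrsp in 3 of 14 at 4 h and 8 of 14 at 7 h, Arrdc2 in 7 of 14, Myc in 6 of 14, and Fasn in 6 of 15. With at least 10 RPKM, Arrdc4, Mlxipl, and Mlxip were not tested.

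Replicate numbers were not known to pair the pools, and the deviations of same-numbered libraries correlated between -0.01 and 0.14. With the replicate number as a block, 2023 genes were called at 7 h, 410 at 10 h, 536 with time in the control, and 1818 with time after p38-MAPKi, and the Txnip differences with time were 1.10 and 1.09. At 4 h, 75 were called.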

Other observations

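A pair of CACGNG with 5 bases between, the arrangement found before the start site of Txnip, was present in the windows of 14 genes, all of them in the table. Of these, 8 reached 1 RPKM in 6 or more libraries, namely Txnip, A430005L14Rik, Fem1b, Fkbp6, Fnip1, Man2b2, Nfkb2, and Rbbp4. The 7 genes other than Txnip had median log2 differences between p38-MAPKi and control of -0.03 at 4 h, -0.13 at 7 h, and 0.01 at 10 h. At 4 h they lay between -0.52 and 0.33, at 7 h between -0.81 and 0.26, and at 10 h between -0.27 and 0.38. Txnip was chosen by its own differences at these time points, so nothing is read from its place beside these genes. These 7 genes were picked by sequence, and no test of them as a group was made.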
